A study of Mus musculus with 14 samples.

Results

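The genes described here are the NF-kappaB subunits, 2 of their feedback inhibitors and 3 inflammatory cytokines, measured in sorted mouse bone marrow cells positive for the surface protein Sca1 and negative for the receptor Kit. The list held 10 genes: Tnf, Il1b, Il6, Nfkbia, Tnfaip3, Nfkb1, Nfkb2, Rel, Rela and Relb. Genes were taken by symbol from probes annotated to a single gene, and the brightest probe on average stood for a gene. In this way 9 of the 10 genes were found among 22180 genes in all, each with 1 probe, and Nfkb1 was not analysed here. The cells were sorted by flow cytometry from female NCR-NU mice, a nude strain that lacks a thymus and is therefore poor in T cells. Among young mice 3 were cancer-free and 3 tumour-bearing, and among old mice 5 were cancer-free and 3 tumour-bearing, which makes 4 groups with 1 array for each biological replicate. Cancer-free mice carried Matrigel without tumour cells, and primary tumours were matched in size. Ages in weeks and the kind of tumour cell are not given in the sources used here.

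NF-kappaB is a family of transcription factor dimers built from Rela, Rel, Relb and the processed products of Nfkb1 and Nfkb2. In resting cells the dimers are held in the cytoplasm by IkappaB proteins such as that of Nfkbia, until signals from receptors of tumour necrosis factor, interleukin-1 or microbial products activate the IKK kinases that mark IkappaB for destruction. The freed dimers switch on cytokine genes such as Tnf, Il1b and Il6, and also Nfkbia and Tnfaip3, whose products turn the pathway off again. In bone marrow the pathway acts in myeloid and lymphoid cells and responds to inflammatory signals.

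The upstream regions of a cytokine gene and of both feedback inhibitors are shown because these 3 genes are described as targets of the same factor. They cover 250 bases directly before the annotated start in RefSeq (GRCm38.p6), all on the minus strand, at chr17:35202008-35202257 for Tnf, chr12:55492648-55492897 for Nfkbia and chr10:19015411-19015660 for the upstream of 2 Tnfaip3 starts. Capitals mark matches to the kappaB consensus of 10 bases, searched on both strands.
Tnf: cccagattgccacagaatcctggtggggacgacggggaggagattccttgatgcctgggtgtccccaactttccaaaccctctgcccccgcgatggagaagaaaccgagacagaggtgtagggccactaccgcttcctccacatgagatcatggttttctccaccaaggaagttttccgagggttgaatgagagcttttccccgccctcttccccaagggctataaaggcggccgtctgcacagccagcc
Nfkbia: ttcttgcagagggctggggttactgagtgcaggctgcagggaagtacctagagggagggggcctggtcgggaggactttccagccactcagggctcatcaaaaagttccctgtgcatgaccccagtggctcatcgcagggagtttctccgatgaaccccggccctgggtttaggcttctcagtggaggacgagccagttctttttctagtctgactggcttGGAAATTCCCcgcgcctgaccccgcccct
Tnfaip3: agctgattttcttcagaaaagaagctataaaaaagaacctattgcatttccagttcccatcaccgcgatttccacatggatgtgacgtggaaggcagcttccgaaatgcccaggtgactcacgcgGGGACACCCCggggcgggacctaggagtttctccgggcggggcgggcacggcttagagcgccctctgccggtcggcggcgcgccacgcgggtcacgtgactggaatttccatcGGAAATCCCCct
Counted from the start, the Nfkbia window held 1 match, GGAAATTCCC, at positions -29 to -20, and this Tnfaip3 window held 2, GGGACACCCC at -125 to -116 and GGAAATCCCC at -12 to -3. The Tnf window held 0 matches, which says only that these letters do not occur there. Of 27025 genes with such windows, 8.23% had a match in at least 1 of them. Among the listed genes, Il6, Nfkb2 and Rel also had a match in at least 1 window, Il1b and Rela had none, and no window was used for Relb.

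The arrays measured RNA on the log2 scale, so a difference of 1 is a doubling. The median of each array lay between 3.81 and 3.93, and each array's mean correlation with the others over the tested genes lay between 0.899 and 0.942. Ptprc, the pan-leukocyte marker, lay between 10.53 and 11.36, and Kit, whose protein the sort excluded, between 5.25 and 7.03. Ly6a, which encodes Sca1, was not analysed here. Of 8 stromal and endothelial markers, 2 (Cxcl12 and Col1a1) were above the median of the value table (3.88) on all 14 arrays. On no array above it were 3 (Lepr, Pdgfra and Tek), and 5 of the 8 passed the filter for testing. Of the monocyte and macrophage markers 10 of 11, and of the T cell markers 8 of 9, were above 3.88 on all 14. Testing required a level over 3.88 on 3 or more arrays, and how many arrays there are limits the precision. Of the 9 listed genes 7 passed, each above it on all 14 arrays, and Il1b and Il6 did not.

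None of the 7 tested genes was called at an adjusted p under 0.05 in limma in any of 7 comparisons, where the share of all 13805 tested genes called was 0% in 6 comparisons and 0.0869% for the mean age difference (the average of that without and that with a tumour). At an unadjusted p under 0.05 there was 1 of 7 in each comparison of 2 groups. For tumour this was Nfkbia in young mice (background 5.40% of all genes) and Tnf in old mice (9.76%). For age it was Tnf without a tumour (7.66%) and Nfkbia with one (10.1%). With 7 genes, 1 is the smallest count above 0, so these counts do not set the list apart from the background. For tumour the median log2 difference of the 7 genes was -0.03 in young and -0.14 in old mice, and for age it was -0.12 without and -0.54 with a tumour. Over all tested genes it was -0.02, 0.01, -0.04 and 0.00 in the same order. Comparisons that share a group are not independent of each other. In RNA from a mixed population, fewer cells of a type and less RNA per cell cannot be told apart.

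Tnf, the gene of the cytokine tumour necrosis factor, had its highest levels in old cancer-free mice and its lowest in young tumour-bearing mice. On the log2 scale the 5 old cancer-free arrays were at 7.16, 8.03, 7.06, 7.51 and 6.59, and the 3 old tumour-bearing arrays at 6.44, 5.69 and 6.17. These groups did not overlap: the highest old tumour-bearing array lay below the lowest old cancer-free array. Groups did not overlap for 6.15% of all genes in this comparison. The difference, tumour-bearing minus cancer-free, was -1.17 ± 0.32 (SE), a 2.25-fold lower level, with an unadjusted p of 0.00267 and an adjusted p of 0.295 in limma. It lay between -1.34 and -0.97 over 24 alternative settings.

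In young mice the Tnf arrays were at 6.66, 6.69 and 5.83 without a tumour and at 6.19, 5.35 and 5.67 with one. These ranges overlapped through young cancer-free replicate 3, and the log2 difference was -0.66 ± 0.36 (95% interval -1.43 to 0.11, adjusted p = 0.887 in limma). Averaged over the ages the log2 difference for tumour was -0.91 ± 0.24 (unadjusted p = 0.00198, background 10.2% of genes, adjusted p = 0.317 in limma). The difference between the tumour effects, old minus young, was -0.51 ± 0.48, with an interval of -1.54 to 0.52 on the log2 scale.

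Between old and young cancer-free mice Tnf differed by 0.88 ± 0.32 on the log2 scale (1.83-fold higher in old mice, unadjusted p = 0.0163, adjusted p = 0.586 in limma). Of the 5 old arrays 4 lay above all 3 young arrays, and old cancer-free replicate 5, at 6.59, lay among them. Groups without overlap made up 7.30% of all genes here, and 0 of the 7 listed genes were among them. Without young cancer-free replicate 3 the log2 difference was 0.59, and its unadjusted p was then no longer under 0.05. In tumour-bearing mice the age difference was 0.36 ± 0.36. Ordered by group mean, Tnf was at 7.27 ± 0.54 (SD, n = 5) on old cancer-free, 6.40 ± 0.49 (SD, n = 3) on young cancer-free, 6.10 ± 0.38 (SD, n = 3) on old tumour-bearing and 5.74 ± 0.42 (SD, n = 3) on young tumour-bearing arrays. In this order neighbouring means other than the first pair differed by less than the SD of either group.

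**Figure D1:**
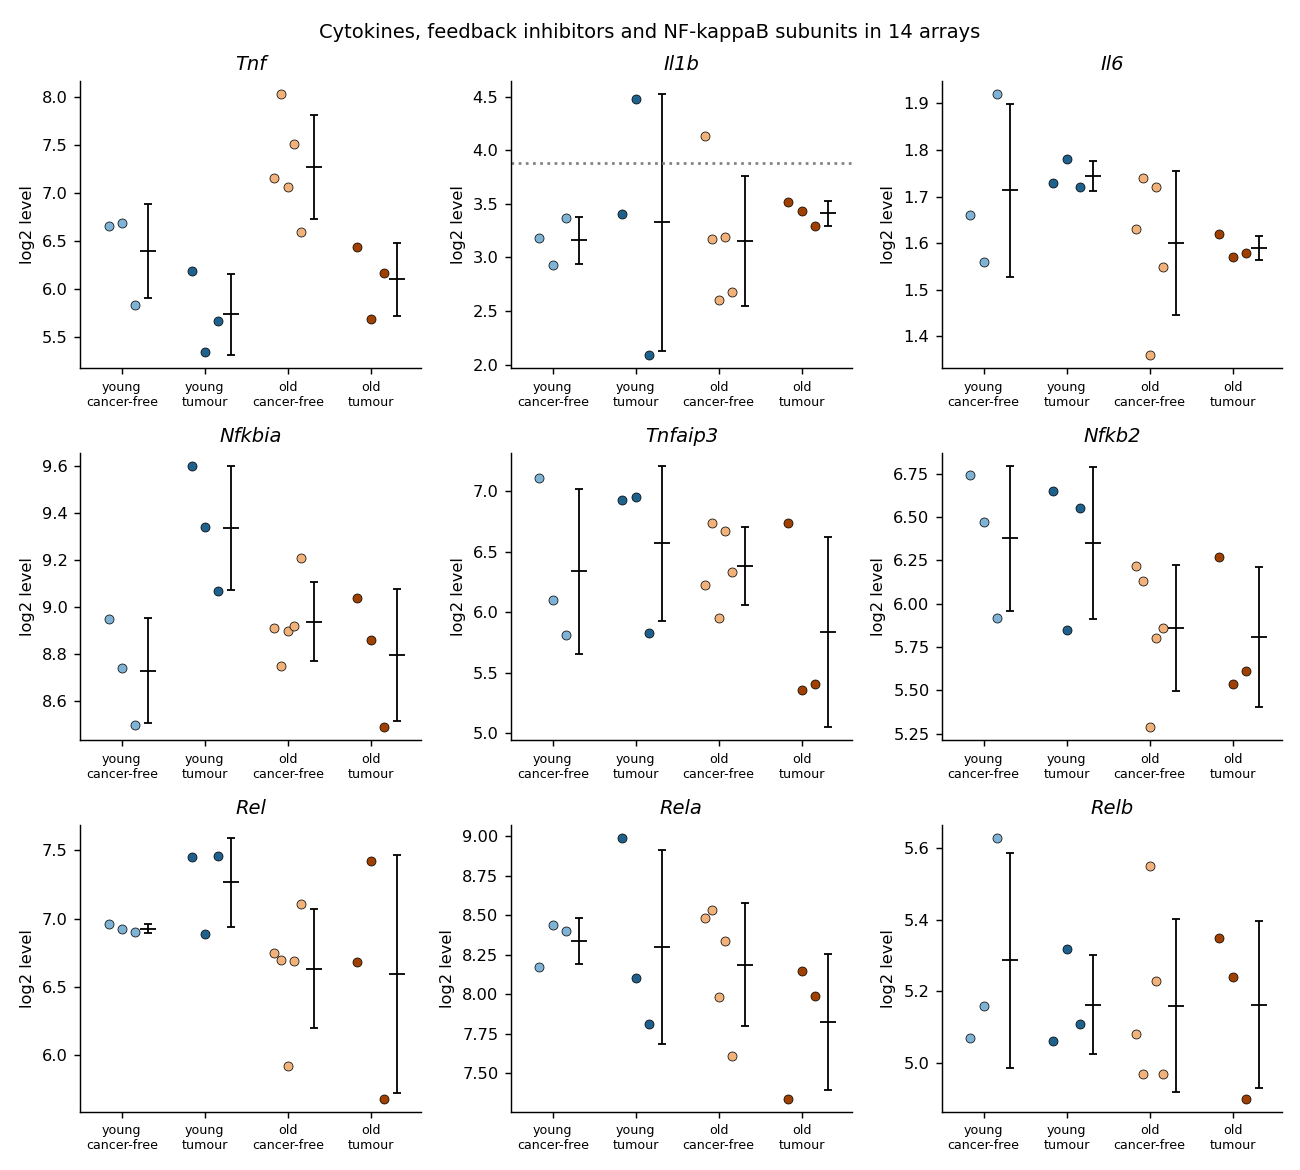
Log2 level of each listed gene with a probe (y axis, a scale of its own in each panel) in the 4 groups (x axis). Points are single arrays, horizontal marks with bars are the group mean ± SD, and the dotted line in the Il1b panel is the median of the value table, 3.88. For Tnf all 3 old tumour-bearing arrays lie below all 5 old cancer-free arrays, and for Nfkbia all 3 young tumour-bearing arrays lie above all 3 young cancer-free arrays.

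The other cytokines were dim. Il1b, the gene of interleukin-1 beta, is made mostly by activated myeloid cells. Its log2 levels were 3.18, 2.93 and 3.37 in young cancer-free mice and 3.41, 4.48 and 2.09 in young tumour-bearing mice. In old mice they were 4.13, 3.17, 2.60, 3.19 and 2.68 without a tumour and 3.52, 3.43 and 3.29 with one. Only 2 arrays, young tumour-bearing replicate 2 and old cancer-free replicate 1, exceeded the median of the value table, and they belong to different groups. Il6, the gene of interleukin-6, an inducer of the acute-phase response, lay between 1.36 and 1.92 and above that median on 0 of 14 arrays. Neither gene passed the filter for testing, so no difference between groups is given for either.

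Nfkbia, which encodes the inhibitor IkappaB alpha and is itself switched on by NF-kappaB, was highest in young tumour-bearing mice. Its log2 levels there were 9.60, 9.34 and 9.07, against 8.95, 8.74 and 8.50 in young cancer-free mice. The groups did not overlap, as for 12.9% of all genes in this comparison. The log2 difference was 0.60 ± 0.21, a 1.52-fold higher level in tumour-bearing mice (unadjusted p = 0.0116, adjusted p = 0.886 in limma). In old mice the levels were 8.91, 8.75, 8.90, 8.92 and 9.21 without a tumour and 9.04, 8.86 and 8.49 with one, and these ranges overlapped. The log2 difference in old mice was smaller than its SE (95% interval -0.54 to 0.26).

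The difference between the tumour effects on Nfkbia, old minus young, was -0.75 ± 0.28 on the log2 scale (unadjusted p = 0.018, background 4.42% of genes, adjusted p = 0.976 in limma), so a difference by age was not called. Among tumour-bearing mice old arrays all lay below young arrays, as for 980 of all 13805 tested genes (13% when either direction is counted). The log2 difference of Nfkbia there was -0.54 ± 0.21 (unadjusted p = 0.0216, adjusted p = 0.4 in limma). Without the 2 arrays of lowest mean correlation, replicate 1 of the young and replicate 3 of the old tumour-bearing group, these values were -0.46 and -0.25. Both of those arrays are the extremes of their groups for Nfkbia, the highest and the lowest. Ordered by group mean, Nfkbia was at 9.33 ± 0.26 (SD, n = 3) on young tumour-bearing, 8.94 ± 0.17 (SD, n = 5) on old cancer-free, 8.80 ± 0.28 (SD, n = 3) on old tumour-bearing and 8.73 ± 0.23 (SD, n = 3) on young cancer-free arrays. The last 3 of these followed each other within 1 SD.

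Tnfaip3 encodes a ubiquitin-editing enzyme that shuts down signalling from tumour necrosis factor receptors. In young mice its log2 levels were 7.11, 6.10 and 5.81 without a tumour and 6.93, 6.95 and 5.83 with one. In old mice they were 6.23, 6.74, 5.95, 6.67 and 6.33 without a tumour and 6.74, 5.36 and 5.41 with one. Every group overlapped every other, and within 3 of the groups the arrays spanned more than 1 log2 unit. Old tumour-bearing replicates 2 and 3 were lower than all other arrays, while replicate 1 was among the higher ones. The log2 difference was -0.55 ± 0.38 for tumour in old mice (adjusted p = 0.659 in limma) and -0.73 ± 0.43 for age in tumour-bearing mice (adjusted p = 0.587 in limma). Leaving out old tumour-bearing replicate 1 moved the former to -1.0 and the latter to -1.18.

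**Figure D2:**
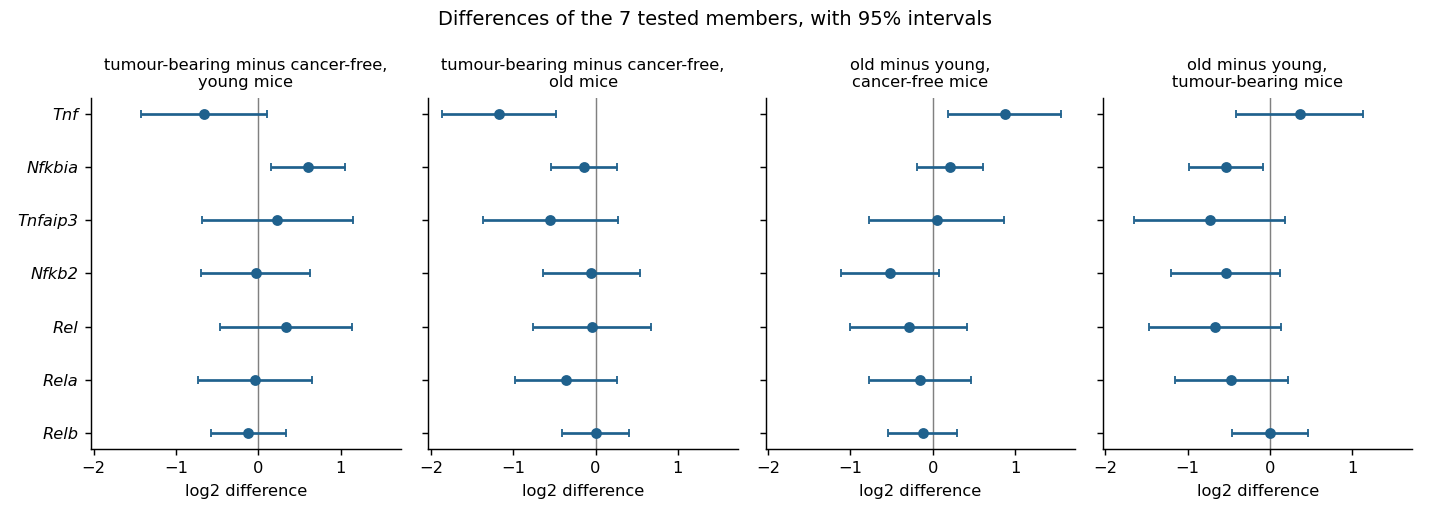
Log2 differences (x axis) of the 7 tested genes (y axis) in the 4 comparisons of 2 groups. Points are the fitted differences and bars their 95% intervals from limma. The intervals of Tnf for tumour in old mice (-1.86 to -0.48) and for age in cancer-free mice (0.19 to 1.56), and those of Nfkbia for tumour in young mice (0.16 to 1.05) and for age in tumour-bearing mice (-0.98 to -0.09), do not include 0, and all others do. These intervals are not adjusted for the number of genes.

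Among the subunits, Nfkb2, the precursor gene of the alternative NF-kappaB pathway, was lower in old than in young mice on average. Young arrays were at 6.74, 6.47 and 5.92 in cancer-free and 6.65, 5.85 and 6.55 in tumour-bearing mice. Old arrays were at 6.22, 6.13, 5.29, 5.80 and 5.86 in cancer-free and 6.27, 5.54 and 5.61 in tumour-bearing mice. The ranges overlapped in both settings. Without a tumour the log2 difference was -0.52 ± 0.28, with one it was -0.54 ± 0.31, and the mean of both was -0.53 ± 0.21 (unadjusted p = 0.0226, background 13.4% of genes, adjusted p = 0.294 in limma). Tnf was the other of the 7 genes at that threshold for age on average, with a log2 difference of 0.62 ± 0.24 in the opposite direction (unadjusted p = 0.0221, adjusted p = 0.292 in limma). Tumour-bearing and cancer-free mice of 1 age differed in Nfkb2 by less than the SE, with 95% intervals of -0.69 to 0.63 in young and -0.64 to 0.54 in old mice.

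Rel encodes c-Rel, a subunit prominent in lymphocytes and dendritic cells. Its log2 levels lay close together in young cancer-free mice, at 6.96, 6.92 and 6.90, and were 7.45, 6.89 and 7.46 in young tumour-bearing mice. In old mice they were 6.75, 6.70, 5.92, 6.69 and 7.11 without a tumour and spread from 5.68 to 7.42 with one. The spread of the old tumour-bearing group, an SD of 0.87 (n = 3), was the widest of any listed gene passing the filter. The age difference in tumour-bearing mice was -0.67 ± 0.37 on the log2 scale (adjusted p = 0.569 in limma). It was -0.21 without old tumour-bearing replicate 3 and -1.08 without old tumour-bearing replicate 2.

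Rela, the activating subunit of the main dimer, was at 8.17, 8.44 and 8.40 in young cancer-free and 8.99, 8.10 and 7.81 in young tumour-bearing mice. It was at 8.48, 8.53, 7.98, 8.34 and 7.61 in old cancer-free and 7.34, 8.15 and 7.99 in old tumour-bearing mice. Adjusted p-values of Rela in limma ranged from 0.566 to 0.992 over the 7 comparisons, and the age difference in tumour-bearing mice, -0.47 ± 0.32 on the log2 scale, was -0.13 without young tumour-bearing replicate 1. Relb, the partner of the Nfkb2 product, stayed between 4.90 and 5.63 on all arrays, with a group mean of 5.28 in young cancer-free mice and of 5.16 in each of the other groups. The 95% intervals of its log2 differences between 2 groups ran from -0.58 at the lowest to 0.46 at the highest.

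The listed genes did not share a single pattern over the 14 arrays. Pearson's r, given as a description of log2 levels over the same 14 arrays, was 0.60 between the feedback inhibitors Nfkbia and Tnfaip3, 0.55 between Nfkb2 and Rel and 0.30 between Tnf and Tnfaip3. It was -0.21 between Tnf and Nfkbia. With the group means removed, r was 0.64 between Nfkbia and Tnfaip3 and 0.64 between Nfkb2 and Tnf, where the undivided value for the latter was -0.00. The lowest value was between Nfkb2 and Relb, at -0.35, or -0.58 with the group means removed. Among all tested genes those most like Tnf were Btg1, an antiproliferative gene, Fam234a (both r = 0.87) and Ecm1 (r = 0.81), and with the group means removed these were 0.56, 0.62 and 0.70. Those most like Nfkbia were A930041C12Rik (r = 0.91), Akap11, an anchoring protein of a protein kinase (r = 0.88), and B2m, the light chain of MHC class I (r = 0.86), or 0.89, 0.85 and 0.73 with the group means removed. Those most like Nfkb2 were Metrn (r = 0.95), Cdipt (r = 0.90) and Tssc4 (r = 0.89), or 0.92, 0.86 and 0.84 with the group means removed. Each was among the highest of 13805 values computed from the same 14 arrays.

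The wider pathway was followed in 100 further genes grouped by role, of which 96 had a probe of their own and 82 were tested. In the 7 comparisons 0 of the 82 were called by limma. At an unadjusted p under 0.05 for tumour 2 were higher and 0 lower in young mice, and 3 higher and 5 lower in old mice. For age 2 were higher and 1 lower without a tumour, and 2 higher and 10 lower with one. The shares of all tested genes at this p, either direction, were 5.40%, 9.76%, 7.66% and 10.1% in that order, against 2, 8, 3 and 12 of 82 here, so the pathway counts lie at or below the background except for age in tumour-bearing mice, and that excess was not tested. The median log2 difference of the 82 genes was -0.10, -0.11, -0.06 and -0.08 in that order.

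Among receptors and adaptors (18 tested), Ltbr, the lymphotoxin beta receptor that feeds the alternative pathway of Nfkb2 and Relb, had higher levels in tumour-bearing mice of both ages. Young arrays were at 5.63, 4.90 and 5.88 without a tumour and at 7.12, 6.19 and 6.48 with one. Old arrays were at 4.90, 5.54, 5.73, 5.21 and 5.62 without a tumour and at 6.54, 6.22 and 5.95 with one. All 6 tumour-bearing arrays lay above all 8 cancer-free arrays, as in either direction for 0.268% of all tested genes. The log2 difference was 1.13 ± 0.31 in young mice, 0.83 ± 0.28 in old mice and 0.98 ± 0.21 on average (1.97-fold, unadjusted p = 0.000333, adjusted p = 0.268 in limma), so it was not called. Il6ra, a chain of the interleukin-6 receptor, differed by 1.09 ± 0.38, and the signalling adaptor Traf6 by -0.63 ± 0.23, between old and young tumour-bearing mice. Tnfrsf1b, a receptor of tumour necrosis factor, differed by -0.82 ± 0.39 there (unadjusted p = 0.0556 in limma), with -0.47 and -1.30 after leaving out old tumour-bearing replicate 2 or 3.

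Of 13 tested IkappaB-family genes and feedback inhibitors, 12 had a negative difference for tumour in old mice and 11 for age in tumour-bearing mice, and both contrasts contain the old tumour-bearing group. Over all 13805 tested genes 6717 and 6835 were negative. At an unadjusted p under 0.05, 2 and 3 of the 13 were lower, against 768 and 876 of all 13805 tested genes. None of the 13 was called, and these counts were not tested as a set. Bcl3, a nuclear IkappaB protein, differed between old and young tumour-bearing mice by -0.99 ± 0.37 on the log2 scale, Nfkbib, the gene of IkappaB beta, by -0.52 ± 0.17 and N4bp1 by -1.05 ± 0.34 (-0.69 without old tumour-bearing replicate 2). Nfkbiz, an inducible nuclear IkappaB protein, differed by -0.51 ± 0.21 for tumour in old mice. Of the 12 tested kinases and partners, Ikbkb, the catalytic IKK subunit of the main pathway, was 0.64 ± 0.21 higher on the log2 scale in old than in young cancer-free mice. Its 5 old arrays (6.65 to 7.48) all lay above the 3 young arrays (6.48 to 6.55). Groups did not overlap for 7.30% of all genes in this comparison, and of the 82 pathway genes for 1 higher and 1 lower gene. Tab1 and Tab2, adaptors of a kinase upstream of IKK, differed by -0.58 ± 0.20 and -0.64 ± 0.24 between old and young tumour-bearing mice, and the IKK-related kinase Ikbke by 0.88 ± 0.43 for tumour in young mice (unadjusted p = 0.061 in limma). The Ikbke difference was 0.45 without young cancer-free replicate 3. Adjusted p-values of these 8 genes in those contrasts lay between 0.326 and 0.886 in limma.

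Among 21 tested target genes, Ccl4, a chemokine of activated leukocytes, had the lowest levels in old tumour-bearing mice. Its arrays there were at 5.28, 6.05 and 5.47, against 6.41, 7.39, 7.52, 6.55 and 6.20 in old cancer-free mice. These groups did not overlap, as for 6.15% of all genes in this comparison. The log2 difference was -1.21 ± 0.36 (adjusted p = 0.334 in limma). Birc3, an inhibitor of apoptosis, differed by -0.69 ± 0.25 for tumour in old mice. Cxcl1, a neutrophil chemokine, differed by 0.78 ± 0.22 for tumour in old mice, but its mean was under 3.88 in all groups except old tumour-bearing mice (4.20). Apart from old cancer-free replicate 3 (4.01), only the old tumour-bearing arrays (4.05, 4.25 and 4.30) exceeded 3.88. Cxcl1 thus passed the filter only through the group where it was high. Its difference is therefore not an exact size, and no tumour effect is drawn from it. Gadd45b, a stress-response gene, differed by 1.33 ± 0.52 between old and young tumour-bearing mice.

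Among 13 other cytokine genes, Il10, an anti-inflammatory cytokine, had a log2 level of 7.23 ± 1.38 (SD, n = 3) in young mice with a tumour and 5.77 ± 0.52 (SD, n = 3) in those without. That difference, 1.46 ± 0.62, is close to the spread within the former group, and leaving out replicate 2 or 3 of that group moved it to 0.90 or 2.23. Il12a, a subunit of interleukin-12, differed by -1.47 ± 0.63 between old and young tumour-bearing mice (-0.91 without young tumour-bearing replicate 2, -2.32 without young tumour-bearing replicate 1). Its 3 old tumour-bearing arrays, at 2.99, 3.11 and 3.6, were all under 3.88, so this is not an exact size. For tumour in old mice Tnfsf10, the death ligand TRAIL, differed by -0.68 ± 0.33 and Csf3, a growth factor of neutrophils, by 0.49 ± 0.20, and without old tumour-bearing replicate 3 these were -0.32 and 0.28. All group means of Csf3 lay near 3.88, between 3.63 and 4.13. Of 5 tested genes of interleukin-1 processing 0 reached an unadjusted p of 0.05 between 2 groups. Gsdmd, the pore protein that lets interleukin-1 out of cells, differed by -0.51 ± 0.24 between old and young tumour-bearing mice (-0.32 without old tumour-bearing replicate 3). Pycard, the inflammasome adaptor, differed by -0.61 ± 0.32 between old and young cancer-free mice. For tumour in old mice Casp4, an inflammatory caspase, differed by -0.64 ± 0.34, with -0.20 and -1.10 after leaving out old tumour-bearing replicate 2 or 3. The DNA sensor Aim2 differed by -0.31 ± 0.27, which leaving out old tumour-bearing replicate 1 moved to -0.15 and leaving out old cancer-free replicate 3 to -0.56.

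**Figure D3:**
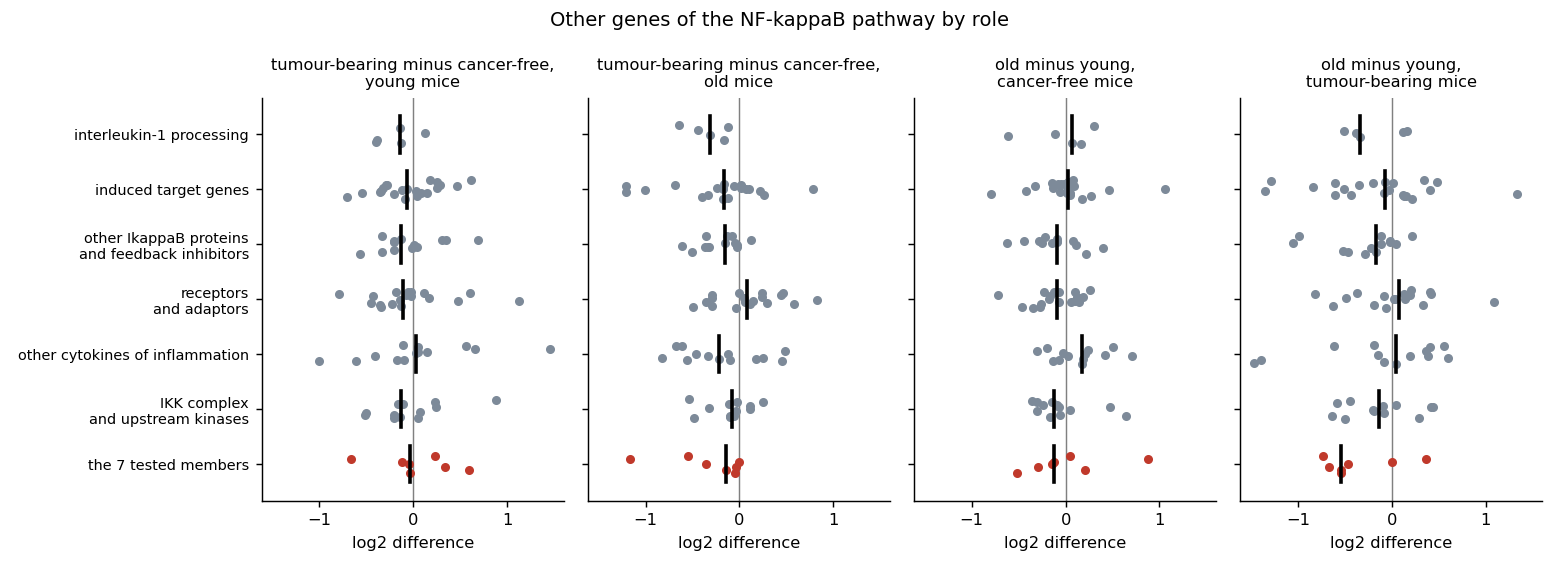
Log2 differences (x axis) of the 82 tested pathway genes in grey, by role (y axis), and of the 7 tested listed genes in red, in the 4 comparisons of 2 groups. Each point is a gene and black bars are medians. The medians of the 7 listed genes run from -0.03 for tumour in young mice to -0.54 for age in tumour-bearing mice.

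Other lists of genes also had different levels in the groups in which Tnf and Nfkbia differed. The mean log2 level of 18 immediate early genes, which cells switch on within minutes of a stimulus, was 7.64 in old cancer-free mice (7.30 to 8.06 over arrays), where Tnf was highest. It was 6.91 (6.64 to 7.16) in young cancer-free, 6.89 (6.46 to 7.17) in young tumour-bearing and 7.14 (6.75 to 7.51) in old tumour-bearing mice. The level summed over the 18 genes, on the log2 scale, ran from 12.77 to 13.24 in old cancer-free mice and from 11.96 to 12.32 in young cancer-free mice, and 17 of the 18 were above 3.88 on all arrays. Fos differed by 2.59 ± 0.57 between old and young cancer-free mice, Jun by 2.0 ± 0.44, Zfp36, which destabilises the Tnf transcript, by 1.06 ± 0.22 and Junb by 0.87 ± 0.24, each with an adjusted p of 0.393 or above in limma. For age in cancer-free mice 8 of the 18 were higher and 1 lower at an unadjusted p under 0.05, and for tumour in old mice 0 were higher and 6 lower, with 0 called in either. Of all 13805 tested genes, 343 were higher and 714 lower in the former comparison, and 580 higher and 768 lower in the latter. The part of these genes in the Tnf differences was not tested.

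Monocyte and macrophage markers, of cells that can make Tnf, had negative age differences without a tumour in 10 of 11 genes, 4 of them at an unadjusted p under 0.05 and 0 called, while Tnf was highest in old cancer-free mice. Of all 13805 tested genes 7655 had a negative difference there, 714 of them at an unadjusted p under 0.05. For age on average 6 of the 11 were lower at an unadjusted p under 0.05, and 1 of these, Itgam, named here after its values were seen, was called by limma (log2 difference -0.96 ± 0.15, adjusted p = 0.0387). Of all 13805 tested genes 1238 were lower at that unadjusted p for age on average, and 10 were called lower. The level summed over 11 markers was 11.22 to 11.95 on the log2 scale in old and 11.72 to 12.08 in young cancer-free mice. It was 11.37 to 11.71 in old and 11.64 to 11.82 in young tumour-bearing mice. T cell markers (9 genes) summed to 10.35 to 11.44 in young tumour-bearing mice, where Nfkbia was highest and Tnf lowest, and to 11.39 to 12.14 in young cancer-free mice. In old mice they summed to 11.36 to 12.68 without a tumour and 11.68 to 12.14 with one. For age in tumour-bearing mice 6 of the 9 T cell markers were higher at an unadjusted p under 0.05 and 0 were called. Of all 13805 tested genes 518 were higher at that p there. Markers of plasmacytoid dendritic cells (10 genes), cells rich in signalling by microbial sensors, summed to 11.07 to 12.29 in young and 9.63 to 11.50 in old cancer-free mice, and to 11.49 to 12.59 in young and 10.50 to 10.77 in old tumour-bearing mice. All 10 had negative age differences without and with a tumour, against 7655 and 6835 of all 13805 tested genes. For age on average 9 of the 10 were lower at an unadjusted p under 0.05 and 0 were called, against 1238 and 10 of all tested genes. Nfkb2 also had lower means in old mice. Markers of natural killer cells (7 genes) had negative differences for tumour in 6 of 7 genes at each age and in 7 of 7 on average, 3 of these at an unadjusted p under 0.05 and 0 called. Of all 13805 tested genes, 7287 were negative for tumour in young mice, 6717 in old mice and 7059 on average. At an unadjusted p under 0.05, 830 of all genes were lower on average. The natural killer cell markers summed to 11.42 to 11.71 without and 10.55 to 11.42 with a tumour in young mice, and to 10.89 to 11.51 without and 10.04 to 10.98 with one in old mice. The sums of 12 neutrophil markers overlapped between all groups, at 10.70 to 12.60 over arrays. The part of these markers in the differences of Tnf, Nfkbia, Nfkb2 and Ccl4 was not tested.

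**Figure D4:**
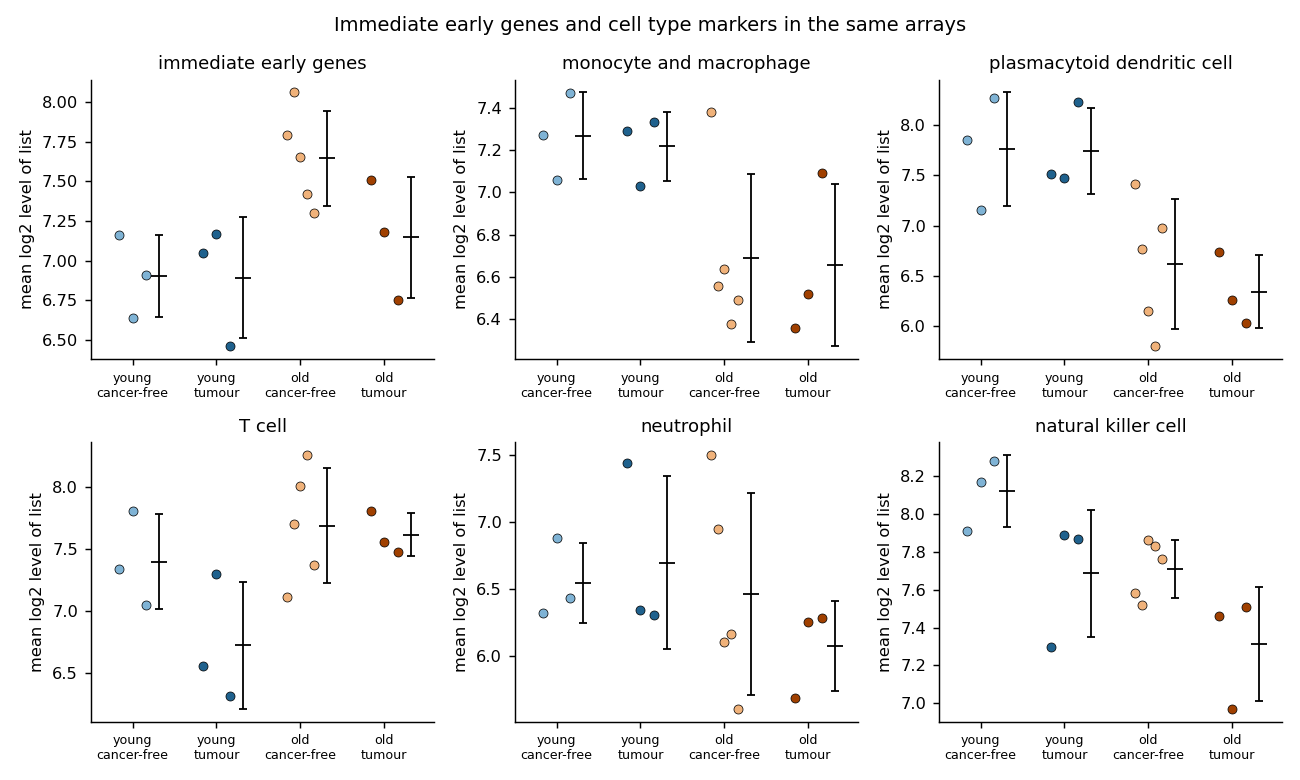
Mean log2 level (y axis) of the genes of 6 lists in the 4 groups (x axis). Points are single arrays, and horizontal marks with bars are the group mean ± SD. Immediate early genes lie at 7.30 to 8.06 in old cancer-free mice, above all young arrays, and monocyte and plasmacytoid dendritic cell markers have lower means in both old groups.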

How the data were processed

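The authors deposited 1 table of log2 values for 41345 probes and 14 one-colour arrays, which the submitters' processing notes credit to RMA (oligo 1.32.0, R 3.2.0). Joint normalisation and filters are not stated there. The log2 scale was inferred from the range of the deposited values, 0.29 to 13.78. RMA's quantile step gives the arrays near-equal distributions, so a shift of most genes would not show.

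Of the probes, 23521 had 1 gene symbol, 1814 several and 16010 none in the platform annotation. The brightest probe on average stood for each of 1082 genes that had several. A model of 4 group means was fitted with limma 3.58.1 (R 4.3.3) to 13805 genes above 3.88 on at least 3 arrays, with Benjamini-Hochberg adjustment within each of 7 comparisons and two-sided tests. The fit was tested on simulated data. The listed genes, the gene lists and the tests were chosen with earlier results of these data known. Pathway genes were named by the 4 smallest p-values of each role in the comparisons of 2 groups, plus Fos, Jun, Zfp36 and Junb, and likeness by the 3 highest r. Summed levels are the log2 of summed linear values. Promoter sequences came from RefSeq (GRCm38.p6), which held windows for 8 of the 9 genes.

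Alternatives were no filter and a stricter filter (5.48), array medians subtracted, cyclic loess, array weights, a variance trend with robust prior, a block for the replicate number, averaging the probes of a gene, fitting the compared groups alone, and leaving out each array or the 2 least correlated arrays. The same alternatives for the named pathway genes were added after seeing the data.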

Additional observations from a re-analysis of the deposited data

Results flagged for a closer look

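Within the old cancer-free group of 5 arrays, 3 values of named pathway genes stood far from the other 4, out of 37 genes examined in this way, and chance alone flags about 1 in 20. Bcl3 was at 5.52 in replicate 1, with the others at 6.29 to 6.51. Replicate 3 was high for Gsdmd, at 7.0, with the others at 6.29 to 6.48, and low for Aim2, at 5.98, with the others at 7.07 to 7.41. None of the 9 genes of the main list stood out in this way.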

How the results depend on the processing

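Of the 7 tested listed genes, 0 were called in any of the 24 alternatives and 7 comparisons. Of 49 differences, 25 were at least as large as their SE and kept their sign in every alternative run, while 20 of the other 24 changed sign in at least 1, so no direction is drawn from those. The stricter filter left out Relb, which then has no value. The difference of Tnf for tumour in old mice had an unadjusted p under 0.05 in 24 of 24 alternatives, and that of Nfkbia for tumour in young mice in 22 of 24 (the exceptions left out replicate 3 of the young cancer-free or replicate 1 of the young tumour-bearing group). For age the count was 23 of 24 for Tnf in cancer-free mice and 19 of 24 for Nfkbia in tumour-bearing mice. On average over ages it was 23 of 23 for Tnf and tumour. For age on average it was 20 of 23 for Tnf and 17 of 23 for Nfkb2, where every exception left out arrays. For the tumour effect on Nfkbia, old minus young, it was 19 of 23. The 28 named pathway and immediate early genes kept their sign and were called in 0 alternatives, and the replicate block moved Pycard (age, cancer-free mice) from -0.61 to -0.30, and Csf3 and Aim2 (tumour, old mice) from 0.49 to 0.30 and from -0.31 to -0.09.

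Counts of called genes over all genes were less stable. For tumour in old mice the count was 0 to 4 when an array was left out, the highest without old tumour-bearing replicate 1 (0 in limma with all arrays, 1348 at an unadjusted p under 0.05). For age in tumour-bearing mice it was 9 with array medians subtracted, 6 with cyclic loess, 7 with the mean of a gene's probes, 6 without the 2 least correlated arrays and 0 to 2 when an array was left out. For age on average it was 12, and 80 with array medians subtracted, 57 with array weights, 43 without the 2 least correlated arrays and 0 to 74 when an array was left out, the extremes being without young cancer-free replicate 3 and without old tumour-bearing replicate 3. With the replicate number as a block it was 0 in limma (1831 at an unadjusted p under 0.05). Arrays of equal replicate number did not deviate together: over 18 such pairs, the correlation of deviations from the group means was -0.076 to 0.089. Over 54 pairs of unequal number it was -0.13 to 0.1. These correlations alone do not settle whether the numbers mark pairs. The cause of these shifts was not tested. The 3 to 5 arrays of a group limit what could be called.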
